A study of Mus musculus with 16 samples.

Results

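Mitosis and spindle genes were followed as 1 group of 42 named genes in the non-tumour colon of 16 ApcMin/+ mice, heterozygous for a truncating mutation of *Apc*, a tumour suppressor of the intestine. The 42 were chosen by gene name for their roles in cell division, and each was read from its brightest probe with a signal well above background on at least 4 of the 16 arrays. All 42 met that condition, among 24481 genes measured in the series, and 40 of them were well above background on all 16 arrays. Tissue came from 4 Sham mice given water alone, 6 Control mice that drank dextran sulphate sodium (DSS, 1.5% w/v) over 3 days and then had saline, and 6 5-ASA mice in which 5-aminosalicylic acid (5-ASA) followed that DSS course, all at day 28. All 3 groups carry the *Apc* mutation, so no wild-type mouse serves as a reference. DSS is a polymer that injures the colonic epithelium, and 5-ASA treats inflammation of the bowel, as in ulcerative colitis. The labels disagree on dosing: one text places 5-ASA or saline in the colorectum over 28 days, the other puts 5-ASA or plain water in the drinking bottle for 25 days after DSS.

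Each mouse was measured on one 1-colour Agilent array. Levels are log2 of the processed spot intensity minus the array's 75th percentile, so 0 is the intensity below which 75% of the array's probes lie and a step of 1 is a 2-fold change. Levels of different genes come from different probes and are not compared with each other. Between 53.0% and 65.2% of spots were well above background, and no spot of any array was saturated. Precision depends on how many mice there were and, for dim genes, on signal over background. The arrays lay on 2 slides with 2 Sham, 3 Control and 3 5-ASA arrays each. Within each slide all Sham arrays were in the first row and all 5-ASA arrays in the second, where 53.0% to 57.7% of spots were well above background, against 59.8% to 65.2% in the first. Control arrays were in both rows. The additive noise estimated for each array was 8.12 to 11.2 in the second row and 4.05 to 5.72 in the first. The labelled tissue was checked against its defining markers. All 10 colon epithelium genes examined, among them *Epcam*, *Vil1*, *Krt20* and *Cdx2*, were well above background on every array. Probe positions are those of the mm9 build in the scanner files, for example chr10:68801072-68801131 for *Cdk1*, chr7:142881591-142881650 for *Mki67* and chr11:43233801-43233860 for *Pttg1*. Exon and UTR annotation of that build was not used here.

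In mitosis, Cdk1 bound to cyclin B drives the cell into division, and Polo-like and Aurora kinases build the spindle. Kinetochores such as the Ndc80 complex attach the centromeres to microtubules, and the spindle checkpoint holds the anaphase promoting complex back until all are attached. That complex, with its activator Cdc20, then marks securin and cyclin B for destruction, separase cuts the rings that hold sister chromatids, and motors and midzone proteins split the cell. Most of these genes are transcribed late in the cell cycle, so in the colon, where division is confined to the crypts, their RNA is widely used as a sign of dividing cells. In bulk tissue, fewer cells of a type and less RNA per cell cannot be told apart.

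A shared promoter feature of this gene class is the cell cycle homology region, a short element with the letters TTTGAA or TTTAAA that is bound by the DREAM and B-MYB complexes, and the CCAAT box, bound by NF-Y. RefSeq promoter windows of GRCm38.p6, from 250 bases before to 50 after the transcript start, were matched by symbol for 35 of the 42 genes, in 37 windows. Windows were not used for *Ccna2*, *Aurkb*, *Incenp*, *Spc24*, *Kif20a*, *Tpx2* and *Dlgap5*. The letters were searched on both strands (TTTGAA appears as TTCAAA when on the opposite strand, and the CCAAT box as ATTGG, whereas TTTAAA is its own reverse complement). TTTGAA stood in 29 of the 37 windows (78.4%), against 17.9% of all 32851 windows in the table. TTTAAA stood in 27.0% of the members' windows and 13.2% of all windows, and at least 1 of the pair in 86.5% and 27.6%. A CCAAT box was present in 81.1% of the members' windows (37.4% of all), and at least 2 in 59.5% (11.7% of all). A CCAAT box together with either element occurred in 75.7% of the members' windows and 10.7% of all. A match is a description of letters and not of binding. With the window cut to the 200 bases before the start, TTTGAA was found in 35.1% of the members' windows and 12.5% of all, either element in 48.6% and 20.0%, and a CCAAT box in 81.1% and 29.3%.

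The 250 bases before the start are printed for 4 genes and for *Pttg1*. The 4 are those with both kinds of motif and the smallest p for both DSS groups against Sham, among the members given in full. *Pttg1* was added after its values were seen, because it alone had no higher mean in the DSS groups than in Sham. Capitals mark these 3 motifs on either strand. *Ube2c* (chr2:164769679-164769928, plus strand, GRCm38.p6) encodes the ubiquitin-conjugating enzyme of the anaphase promoting complex and has 6 CCAAT matches, 2 of which overlap, with the TTTGAA element (as TTCAAA) at positions -29 to -24 from the start. *Ect2* (chr3:27153879-27154128, minus strand) encodes the exchange factor that activates RhoA for cytokinesis. It has 2 windows in the table, and in the one shown it has TTTGAA at positions -114 to -109 from the start. *Aurka* (chr2:172370571-172370820, minus strand) encodes Aurora A and *Kif4* (chrX:100625815-100626064, plus strand) a chromosome-bound kinesin. In both, the CCAAT boxes lie before the start and TTTGAA after it, at bases 33 to 38 of the *Aurka* transcript and 20 to 25 of *Kif4*. *Pttg1* (chr11:43425982-43426231, minus strand) encodes securin, and its window holds none of these letters.
Ube2c: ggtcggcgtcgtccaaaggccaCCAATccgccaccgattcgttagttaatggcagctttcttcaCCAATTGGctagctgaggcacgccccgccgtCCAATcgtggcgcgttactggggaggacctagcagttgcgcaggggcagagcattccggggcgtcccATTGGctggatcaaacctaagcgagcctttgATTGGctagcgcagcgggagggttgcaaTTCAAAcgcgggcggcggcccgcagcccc
Ect2: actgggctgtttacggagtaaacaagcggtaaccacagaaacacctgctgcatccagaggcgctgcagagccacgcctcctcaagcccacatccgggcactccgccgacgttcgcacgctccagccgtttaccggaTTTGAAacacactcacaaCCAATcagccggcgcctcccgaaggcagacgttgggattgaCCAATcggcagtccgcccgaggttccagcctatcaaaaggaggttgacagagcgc
Aurka: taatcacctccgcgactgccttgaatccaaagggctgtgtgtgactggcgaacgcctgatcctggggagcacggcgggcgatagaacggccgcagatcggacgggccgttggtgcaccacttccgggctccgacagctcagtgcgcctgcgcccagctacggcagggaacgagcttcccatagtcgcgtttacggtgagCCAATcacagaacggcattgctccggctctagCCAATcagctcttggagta
Kif4: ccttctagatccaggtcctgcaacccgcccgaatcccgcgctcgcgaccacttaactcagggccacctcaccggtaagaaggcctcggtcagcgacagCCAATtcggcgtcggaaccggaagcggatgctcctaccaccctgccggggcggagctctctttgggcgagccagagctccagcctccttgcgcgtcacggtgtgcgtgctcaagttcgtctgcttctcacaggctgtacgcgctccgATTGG
Pttg1: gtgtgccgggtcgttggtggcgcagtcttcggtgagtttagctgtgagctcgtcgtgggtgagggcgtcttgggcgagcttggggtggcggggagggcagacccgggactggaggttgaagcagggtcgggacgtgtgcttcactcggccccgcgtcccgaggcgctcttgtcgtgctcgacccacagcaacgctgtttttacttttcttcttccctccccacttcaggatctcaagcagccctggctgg
The windows of *Mad2l1* and *Nuf2* hold none of the motifs either. Their differences of both DSS groups against Sham were 0.91 and 0.87, and that of *Pttg1* was -0.07. The part of the motifs in these levels was not tested.

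Across the mice, the levels of most of the 42 genes varied together. *Pttg1* was nearly level, and *Aurkb*, which was dim, separated by slide. Taking for each mouse the mean over the members of the level minus the gene's own mean over the 16 mice, Sham 1 to 4 stood at -0.63, -0.33, -1.24 and -0.39. Control 1 to 6 stood at -0.39, -0.05, 0.45, 0.43, -0.12 and 0.03. The 5-ASA mice 1 to 6 stood at 1.04, 1.09, -0.04, -0.65, -0.01 and 0.81. All 4 Sham mice were thus below the average, 5-ASA 1, 2 and 6 were well above every other mouse, and 5-ASA 4 was lower than all Sham mice except Sham 3. Sham 3 was the lowest of the 16 mice for 40 of the 42 genes, all but *Incenp* and *Pttg1*. Its array had the lowest share of spots well above background in the first row (59.8%), and the part of this in its levels was not tested. 5-ASA 1, 2 and 6 were the 3 highest mice for 36 genes, and a 5-ASA mouse was the highest for all 42. 5-ASA 4 lay below every Control mouse for 36 genes. Shares of all genes with the same ranks of mice are not given.

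**Figure D1:**
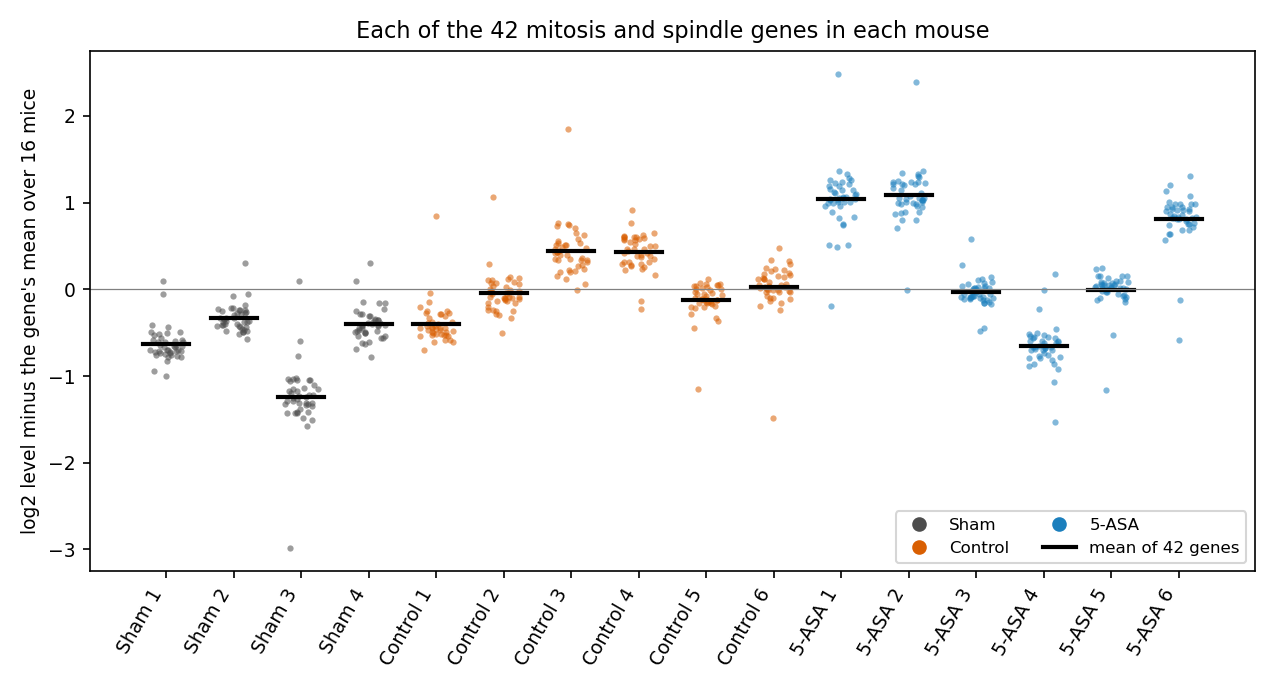
Each point is 1 of the 42 genes in 1 mouse, as its log2 level minus its mean over the 16 mice, and the black bar is the mean of the 42 genes. The genes of a mouse lie close together, from a mean of -1.24 in Sham 3 to 1.09 in 5-ASA 2, and the stray points are mostly Aurkb, which is dim, and Pttg1, which is flat.

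The spread between mice was wide for these genes. The SD over the 16 mice had a median of 0.67 over the members, against 0.26 over all genes tested, and the median distance from the lowest to the highest mouse was 2.37 against 0.92. Within groups, the residual SD had a median of 0.54 over the members and 0.26 over all genes. The SD in 5-ASA exceeded that in Control for all 42 genes, and that in Sham for 41, all but *Cenpf*. Shares over all genes are not given for these SD counts, and every 5-ASA array lay in the second row. For the mean over the members, the SD was 0.41 in Sham, 0.33 in Control and 0.71 in 5-ASA. Day-28 diarrhea scores were 1.5 for Control 3, 1 for Control 4 and 6 and 0.5 for the other Control mice, and 0 for 5-ASA 1 and 5 and 0.5 for the other 5-ASA mice. Sham 1 scored 0 and the other Sham mice 0.5. In Control the mean over the members was 0.45 in Control 3, and 0.43 and 0.03 in Control 4 and 6. It was -0.05, -0.12 and -0.39 in Control 2, 5 and 1. In 5-ASA, mice with the same score differed widely, as 5-ASA 2 (1.09) and 5-ASA 4 (-0.65) show. A relation of score and level was not tested.

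The first comparison asks how the colon 25 days after the DSS course differs from that of mice given water alone. The DSS mice also had saline or 5-ASA afterwards, so DSS and what followed it cannot be told apart in contrasts with Sham. Group means were ordered Sham, Control, 5-ASA for 41 of the 42 genes, the exception being *Pttg1*. Among all genes, 49.7% had a higher mean in Control than in Sham, 49.2% in 5-ASA and 48.8% in both DSS groups together. Against Sham, the median difference over the members was 0.70 in Control (1.63-fold) and 1.04 in 5-ASA (2.06-fold), and it was 0.87 for both DSS groups together, while the medians over all genes tested were -0.0017, -0.0033 and -0.0053 in that order. No member passed an adjusted p of 0.05 in limma's test over all genes for any contrast. Adjusted p-values of the members started at 0.561 in Control, at 0.338 in 5-ASA and at 0.369 in both DSS groups together. Of all genes tested, 0.00408% were called higher in each of these contrasts, and 0.0531%, 0.0531% and 0.0613% were called lower. At an unadjusted p under 0.05, 20 members were higher in Control, where the share among all genes was 5.35%, 40 in 5-ASA (5.82%) and 40 in both DSS groups together (6.65%). No member was lower at that level, against 3.52%, 5.12% and 4.84% of all genes. The 2 exceptions in the last 2 contrasts were *Aurkb* and *Pttg1*. Levels of Control and Sham did not overlap for 9 members, against 2.62% of all genes. These were *Cdk1*, *Aurka*, *Bub1*, *Mad2l1*, *Ndc80*, *Spc24*, *Spc25*, *Ect2* and *Anln*, all higher in Control. 5-ASA and Sham overlapped for every member, since 5-ASA 4 lay at or below the highest Sham mouse for 41 genes.

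These contrasts share their Sham mice. For 5-ASA against Sham, the count at an unadjusted p under 0.05 was 37 to 40 whichever mouse was left out. The other counts depended on single mice, and all 3 counts depended on the slide. For 5-ASA against Sham the count was 38 on slide 1 alone and 0 on slide 2 alone. It was 0 and 2 for Control against Sham, and 20 and 10 for both DSS groups against Sham. Without Sham 3, the median difference was 0.52 for Control against Sham and 0.69 for both DSS groups, and the counts at an unadjusted p under 0.05 were 0 and 21. The count for Control against Sham was also 9 without Sham 1, 6 without Control 3, 5 without Control 4 and 12 without Control 6, and it was 32 without Control 1 and 35 without 5-ASA 4. With the array row as a covariate the medians were 0.60, 0.79 and 0.71, and the unadjusted counts were 1 for Control, 0 for 5-ASA and 2 for both DSS groups. Among first-row arrays alone (4 Sham, 4 Control) the median was 0.60 with 25 members at an unadjusted p under 0.05. The share of all genes at that level is not given for the settings in this paragraph. These counts therefore show how the members' own number moved, and not whether it exceeds that of all genes. 5-ASA and Sham share no row, so row and group cannot be told apart in that contrast beyond what the Control arrays carry.

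Cyclins and Cdk1, the engine of mitotic entry, were 4 of 4 higher in both DSS groups, with differences from Sham of 0.64 to 0.91 in Control. *Cdk1* was at 0.18, 0.42, -0.82 and 0.00 in Sham 1 to 4, from 0.42 to 1.43 with a median of 0.72 in Control, and from -0.38 to 2.03 with a median of 1.14 in 5-ASA. All Control mice were above all Sham mice, though Sham 2 and Control 1 met at 0.42, while 5-ASA 4 lay among the Sham mice. The difference was 0.84 (SE 0.41) for Control against Sham and 1.13 (SE 0.41) for 5-ASA against Sham (adjusted p = 0.565 and 0.345). *Ccna2* (cyclin A2, active in S phase and early mitosis) was at 1.69, 1.92, 0.98 and 1.93 in Sham 1 to 4, from 1.93 to 3.05 with a median of 2.44 in Control, and from 1.68 to 3.46 with a median of 2.92 in 5-ASA. Sham 4 and Control 1 met at 1.93, and the difference was 0.91 (SE 0.35) in Control and 1.16 (SE 0.35) in 5-ASA (adjusted p = 0.561 and 0.338). *Ccnb1* (cyclin B1, the partner of Cdk1 in mitosis) lay at 0.61, 0.89, -0.21 and 0.71 in Sham 1 to 4, from 0.55 to 1.60 with a median of 1.20 in Control, and from 0.44 to 2.12 with a median of 1.58 in 5-ASA. Sham 1, 2 and 4 were above Control 1, so the groups overlapped. Its difference was 0.68 (SE 0.32) in Control and 1.00 (SE 0.32) in 5-ASA. The probe lies in the outermost spot row of the array, and the other *Ccnb1* probes, elsewhere on the array, differed by 0.70 and 0.82 in Control. *Ccnb2* (cyclin B2) differed by 0.64 (SE 0.27) and 0.88 (SE 0.27).

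Among the kinases that build the spindle, *Plk1* (Polo-like kinase 1) was at 1.98, 2.39, 1.31 and 2.31 in Sham 1 to 4, from 2.21 to 3.33 with a median of 2.75 in Control, and from 1.80 to 3.95 with a median of 3.16 in 5-ASA. Sham 2 and 4 exceeded Control 1, and 5-ASA 1 and 2 were the highest mice. The difference was 0.81 (SE 0.38) in Control and 1.12 (SE 0.38) in 5-ASA (adjusted p = 0.564 and 0.338). *Aurka* (Aurora A, which acts at the spindle poles) was at 1.04, 1.25, 0.28 and 0.93 in Sham 1 to 4, from 1.27 to 2.15 with a median of 1.85 in Control, and from 0.89 to 3.01 with a median of 2.20 in 5-ASA. Control and Sham did not overlap, and 5-ASA 4 was below Sham 1, 2 and 4. *Aurka* had the largest difference of any member for both DSS groups against Sham, 1.11 (SE 0.32), or 2.16-fold (adjusted p = 0.369). *Nek2*, a centrosome kinase, differed by 0.86 (SE 0.35) in Control and 1.15 (SE 0.35) in 5-ASA.

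The chromosomal passenger complex, which corrects faulty attachments, was 4 of 4 higher, but its enzyme was measured poorly. *Birc5* (survivin) was at 3.21, 3.42, 2.58 and 3.48 in Sham 1 to 4, from 3.45 to 4.53 with a median of 3.91 in Control, and from 3.15 to 5.16 with a median of 4.30 in 5-ASA. Control 1 lay below Sham 4, and its difference of both DSS groups against Sham was 0.98 (SE 0.32) (adjusted p = 0.369). Other *Birc5* probes gave 1.02 and 1.03. *Incenp* (the scaffold of the complex) was at 2.60, 2.94, 2.60 and 3.22 in Sham 1 to 4, from 2.93 to 3.75 with a median of 3.34 in Control, and from 2.87 to 4.52 with a median of 3.63 in 5-ASA. It is the 1 gene besides *Pttg1* for which Sham 3 was not the lowest mouse, since Sham 1 was as low (2.60), and its difference of both DSS groups against Sham was 0.71 (SE 0.27). *Cdca8* (borealin) differed by 0.82 (SE 0.29) in the same contrast. *Aurkb* (Aurora B) was well above background on 11 of 16 arrays, in 3 Sham, 5 Control and 3 5-ASA mice. It was at -4.21, -3.86, -7.14 and -4.51 in Sham 1 to 4, from -5.64 to -2.31 with a median of -3.85 in Control, and from -5.69 to -1.68 with a median of -4.16 in 5-ASA. Every slide 1 mouse (-4.21 to -1.68) was above every slide 2 mouse (-7.14 to -4.39), which holds for no other member. Its difference of both DSS groups against Sham was 1.03 (SE 0.83), with an interval that spans 0.

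**Figure D2:**
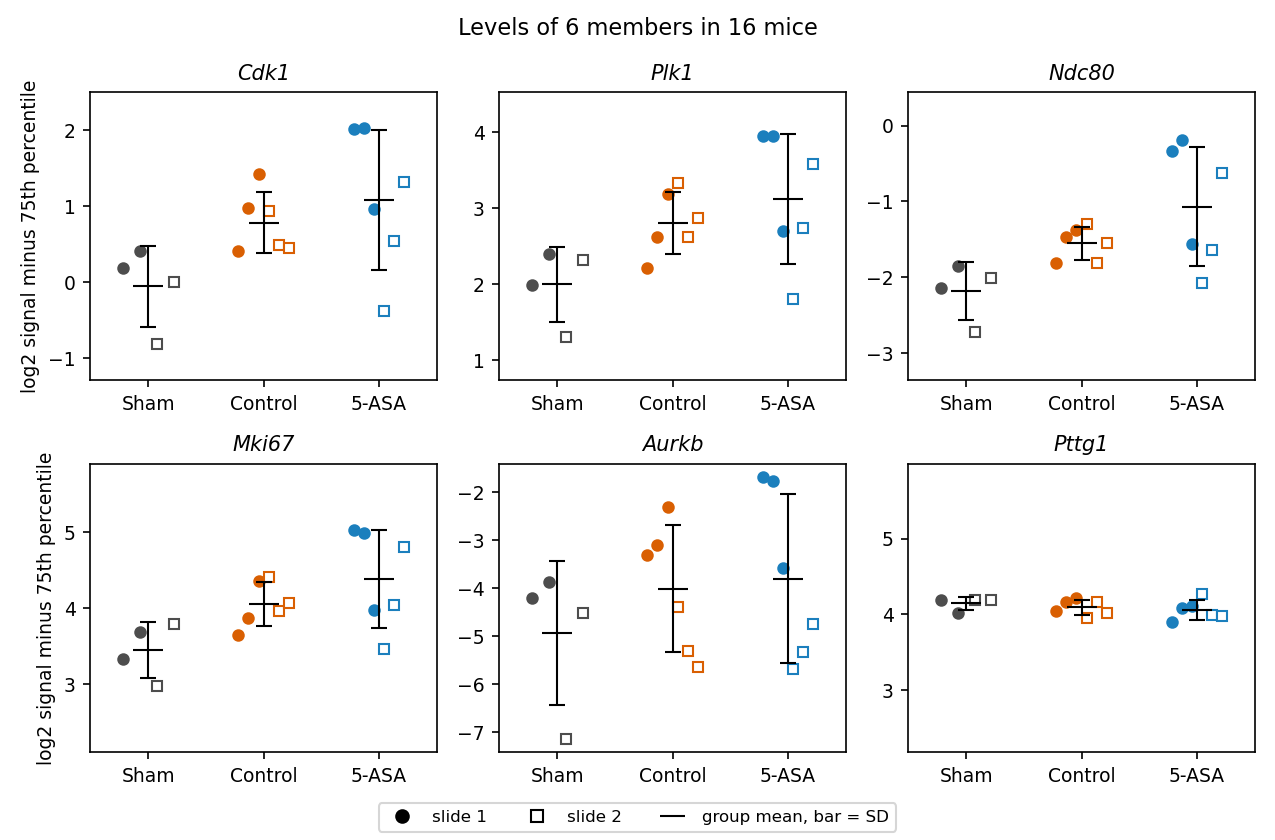
Log2 level (75th percentile of the array = 0) of 6 members in each mouse by group, with filled circles for slide 1, open squares for slide 2, and the group mean and SD in black. All panels have the same span except Aurkb, which has a wider one. Sham 3 is the lowest and 5-ASA 1 and 2 are the highest mice for Cdk1, Plk1, Ndc80 and Mki67, Aurkb separates by slide, and Pttg1 stays between 3.91 and 4.27.

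The spindle checkpoint kinases and their effector were 4 of 4 higher in both DSS groups. *Bub1* (a kinase at unattached kinetochores) was at -1.56, -1.24, -2.17 and -1.43 in Sham 1 to 4, from -1.19 to -0.44 with a median of -0.87 in Control, and from -1.73 to 0.50 with a median of -0.43 in 5-ASA. All Control mice were above all Sham mice, and 5-ASA 4 was lower than 3 of the 4 Sham mice. The difference was 0.78 (SE 0.37) in Control and 1.18 (SE 0.37) in 5-ASA (adjusted p = 0.562 and 0.338). *Mad2l1* (Mad2, the inhibitor of Cdc20) was at 1.04, 1.26, 0.52 and 1.20 in Sham 1 to 4, from 1.44 to 2.46 with a median of 1.67 in Control, and from 0.80 to 2.75 with a median of 2.04 in 5-ASA. Control 1 at 1.44 was above the highest Sham mouse, Sham 2 at 1.26. Its difference of 5-ASA against Control, 0.18 (SE 0.30), was the smallest among the members apart from *Pttg1*. *Bub1b* (BubR1) and *Ttk* (Mps1) differed from Sham by 0.63 (SE 0.30) and 0.75 (SE 0.40) in Control and by 0.95 (SE 0.30) and 1.13 (SE 0.40) in 5-ASA.

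Of the genes around the anaphase promoting complex, 4 of 5 were higher and *Pttg1* was level. *Cdc20* (the activator of the complex) was at 2.10, 2.58, 1.80 and 2.46 in Sham 1 to 4, from 2.25 to 3.26 with a median of 3.02 in Control, and from 2.33 to 3.82 with a median of 3.29 in 5-ASA. Sham 2 and 4 lay above Control 1, and the difference of both DSS groups against Sham was 0.81 (SE 0.26) (adjusted p = 0.369). *Ube2c* (its ubiquitin-conjugating enzyme) was at 1.46, 1.92, 1.09 and 1.96 in Sham 1 to 4, from 1.86 to 2.97 with a median of 2.58 in Control, and from 1.80 to 3.54 with a median of 2.94 in 5-ASA. Control 1 was just below Sham 2 and 4, and 5-ASA 6 was the highest mouse. The difference was 0.90 (SE 0.32) in Control and 1.22 (SE 0.32) in 5-ASA, 1.87-fold and 2.32-fold (adjusted p = 0.561 and 0.338). *Espl1* (separase) and *Cdca3* (a trigger of Wee1 destruction) differed by 0.84 (SE 0.29) and 0.92 (SE 0.31) for both DSS groups. *Pttg1* (securin, the inhibitor of separase) was at 4.18, 4.02, 4.19 and 4.19 in Sham 1 to 4, from 3.95 to 4.22 with a median of 4.11 in Control, and from 3.91 to 4.27 with a median of 4.04 in 5-ASA. Its whole range over the 16 mice was 0.36, with 5-ASA 4 the highest and 5-ASA 1 the lowest mouse. The difference was -0.05 (SE 0.08) in Control and -0.09 (SE 0.08) in 5-ASA, and the 95% interval of both DSS groups against Sham ran from -0.23 to 0.08. A dimmer *Pttg1* probe at another site of the gene, well above background on all 16 arrays, gave 0.07 in Control and 0.03 in 5-ASA. Securin and separase, which act as a pair, thus differed by -0.07 and 0.84 in the same mice.

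All 7 centromere and kinetochore genes were higher in both DSS groups. *Ndc80* (the microtubule-binding subunit of the outer kinetochore) was at -2.14, -1.85, -2.72 and -2.01 in Sham 1 to 4, from -1.81 to -1.30 with a median of -1.51 in Control, and from -2.07 to -0.20 with a median of -1.09 in 5-ASA. Sham and Control did not overlap, with Sham 2 the highest Sham mouse and Control 1 and 5 the lowest Control mice, and 5-ASA 1, 2 and 6 stood apart from -0.62 upwards. *Ndc80* had the largest difference of 5-ASA against Control of any member, 0.48 (SE 0.29), and against Sham it differed by 1.11 (SE 0.33) in 5-ASA (adjusted p = 0.999 and 0.338). *Spc24* (an inner subunit of the same complex) was at -0.51, -0.37, -1.14 and -0.37 in Sham 1 to 4, from -0.17 to 0.85 with a median of 0.17 in Control, and from -0.48 to 1.19 with a median of 0.52 in 5-ASA. Control 1 at -0.17 was above every Sham mouse, and the difference was 0.88 (SE 0.32) in Control and 1.09 (SE 0.32) in 5-ASA. The remaining subunits of the complex, *Nuf2* and *Spc25*, differed by 0.87 (SE 0.31) and 0.86 (SE 0.31) for both DSS groups, so the 4 subunits lay between 0.86 and 0.98. *Cenpa*, the centromeric histone, differed by 0.81 (SE 0.28) and *Cenpe*, a kinetochore kinesin, by 0.79 (SE 0.29). *Cenpf* was well above background in 2 of 4 Sham, 6 of 6 Control and 4 of 6 5-ASA mice, and differed by 0.82 (SE 0.36).

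The 6 mitotic kinesins were higher in both DSS groups. *Kif20a* (the motor that brings the passenger complex to the midzone) was at 0.28, 0.76, -0.15 and 0.76 in Sham 1 to 4, from 0.52 to 1.21 with a median of 1.01 in Control, and from 0.41 to 2.22 with a median of 1.43 in 5-ASA. Sham 2 and 4, both at 0.76, were above Control 1. The difference was 0.56 (SE 0.32) in Control and 1.03 (SE 0.32) in 5-ASA, and 0.47 (SE 0.28) between 5-ASA and Control. *Kif4* was at -1.75, -1.61, -2.37 and -1.58 in Sham 1 to 4, from -1.74 to -0.39 with a median of -0.95 in Control, and from -1.70 to 0.01 with a median of -0.50 in 5-ASA. Control 1 at -1.74 lay among the Sham mice, and the difference was 0.90 (SE 0.34) in Control and 1.19 (SE 0.34) in 5-ASA (adjusted p = 0.561 and 0.338). The bipolar spindle motor *Kif11* differed by 0.90 (SE 0.29) for both DSS groups, the midzone motor *Kif23* by 0.80 (SE 0.27), the depolymerase *Kif2c* by 0.83 (SE 0.32) and the chromokinesin *Kif22* by 0.89 (SE 0.32).

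Spindle assembly factors held the member with the smallest difference after *Pttg1*. *Hmmr* (a microtubule-binding protein of the spindle) was at 0.71, 1.15, 0.61 and 1.04 in Sham 1 to 4, from 0.74 to 1.43 with a median of 1.21 in Control, and from 0.98 to 1.96 with a median of 1.47 in 5-ASA. Sham 2 at 1.15 was above Control 1 and 2 and just below Control 5 (1.16), and the difference was 0.27 (SE 0.21) in Control and 0.60 (SE 0.21) in 5-ASA (adjusted p = 0.705 and 0.338). *Aspm* (which focuses microtubules at the poles) was at -0.43, -0.12, -1.08 and -0.31 in Sham 1 to 4, from -0.21 to 0.33 with a median of 0.06 in Control, and from -0.40 to 0.96 with a median of 0.50 in 5-ASA. Control 1 lay between Sham 2 and Sham 4, and the difference of both DSS groups against Sham was 0.73 (SE 0.22) (adjusted p = 0.369). *Tpx2*, the activator of Aurora A, differed by 0.85 (SE 0.30) and *Dlgap5*, a microtubule stabiliser, by 1.01 (SE 0.33). Among midzone and cytokinesis genes, *Prc1* (the bundler of midzone microtubules) was at 1.20, 1.65, 0.81 and 1.69 in Sham 1 to 4, from 1.50 to 2.33 with a median of 2.07 in Control, and from 1.43 to 3.25 with a median of 2.57 in 5-ASA. Sham 2 and 4 exceeded Control 1, and the difference was 0.69 (SE 0.32) in Control and 1.15 (SE 0.32) in 5-ASA (adjusted p = 0.562 and 0.338). *Ect2* was at 0.31, 0.50, -0.29 and 0.62 in Sham 1 to 4, from 0.64 to 1.24 with a median of 0.97 in Control, and from 0.38 to 1.94 with a median of 1.35 in 5-ASA. Control 1 at 0.64 was just above Sham 4 at 0.62, the highest Sham mouse. The difference was 0.68 (SE 0.28) in Control and 1.03 (SE 0.28) in 5-ASA, and *Anln* (anillin, of the contractile ring) differed by 0.77 (SE 0.33) and 1.13 (SE 0.33).

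The last 2 members concern chromosome structure. *Top2a* (the topoisomerase that untangles sister chromatids) was at 0.15, 0.43, -0.47 and 0.28 in Sham 1 to 4, from 0.42 to 1.83 with a median of 0.92 in Control, and from 0.22 to 2.20 with a median of 1.36 in 5-ASA. Sham 2 at 0.43 met Control 1 at 0.42, and Control 3 and 4 stood above the other Control mice at 1.64 and 1.83. Its difference in Control, 0.93 (SE 0.39), was the largest of any member, and that in 5-ASA was 1.24 (SE 0.39) (adjusted p = 0.561 and 0.338). *Mki67* (Ki-67, the usual marker of proliferating cells) was at 3.33, 3.69, 2.98 and 3.79 in Sham 1 to 4, from 3.64 to 4.41 with a median of 4.02 in Control, and from 3.47 to 5.03 with a median of 4.42 in 5-ASA. Sham 2 and 4 were above Control 1, and the means were 3.45 ± 0.37 in the Sham mice (SD, n = 4), 4.05 ± 0.29 in the Control mice (SD, n = 6) and 4.38 ± 0.65 in the 5-ASA mice (SD, n = 6). The difference was 0.61 (SE 0.29) in Control and 0.94 (SE 0.29) in 5-ASA (adjusted p = 0.564 and 0.338). Control 1 was the lowest Control mouse for 39 of the 42 genes, and Control 3 or 4 the highest for 41. Among the members that have a further kept probe (14 genes, 18 probes), all 18 were higher in the DSS groups than in Sham, by 0.05 to 1.29 with a median of 0.82.

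**Figure D3:**
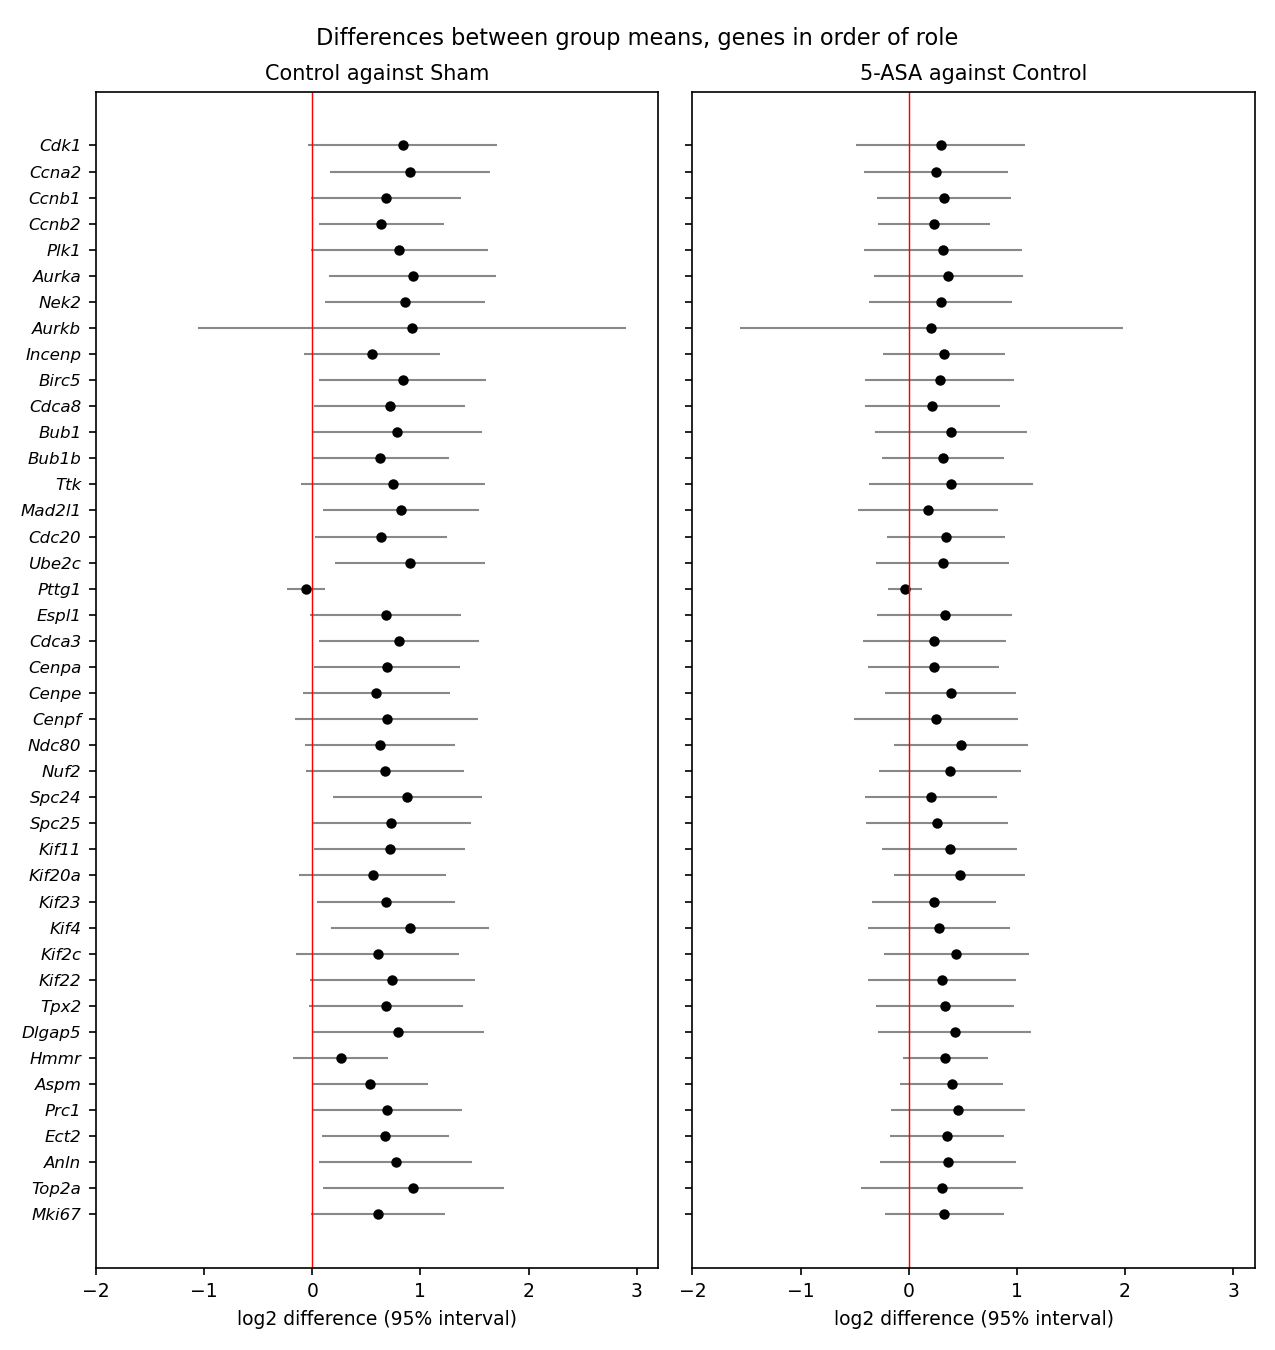
Difference of group means with its 95% interval for each member, in log2 units, for Control against Sham (left) and 5-ASA against Control (right), with genes in order of role. Points lie between 0.27 and 0.93 on the left and between 0.18 and 0.48 on the right, apart from Pttg1 near 0, and 22 of the 42 intervals on the left and all on the right include 0.

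The comparison of 5-ASA with Control asks what the drug changes after the same DSS course. For these genes the groups were not told apart. The median difference was 0.32 (1.25-fold), 41 of 42 members had the higher mean in 5-ASA, and 49.5% of all genes did. No member reached an unadjusted p under 0.05, against 1.36% of all genes, and the adjusted p of every member was 0.999 in limma's test. No member's groups were apart with 5-ASA higher (0.0245% of all genes were), and 0 of 24481 genes were called higher. The 95% intervals of 15 of the 42 members still hold a 2-fold higher level in 5-ASA, so these mice do not show that the groups were alike. *Ndc80* (0.48), *Kif20a* (0.47), *Prc1* (0.46) and *Kif2c* (0.44) had the largest differences and *Mad2l1* (0.18) and *Spc24* (0.21) the smallest apart from *Pttg1*.

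The higher means in 5-ASA lay on slide 1. On slide 1 (5-ASA 1, 2 and 3 against Control 1, 2 and 3) 41 members were higher in 5-ASA, with a median of 0.73. On slide 2 (5-ASA 4, 5 and 6 against Control 4, 5 and 6) 8 were higher, namely *Pttg1*, *Ndc80*, *Kif20a*, *Kif2c*, *Dlgap5*, *Hmmr*, *Aspm* and *Prc1*, and the median was -0.07. *Plk1* differed by 0.87 on slide 1 and by -0.23 on slide 2, and *Cdk1* by 0.73 and -0.14. The difference between the slides was tested because earlier results of these data gave these genes different directions on the 2 slides. It had a median of -0.79 over the members. In limma's test no member was called, with adjusted p from 0.847 to 0.884 (0.00408% of all genes were called). No member was below an unadjusted p of 0.05 for this difference, against 5.22% of all genes, and 50.4% of all genes had a difference above 0. Slide 1 holds 5-ASA 1 and 2, the highest mice, and slide 2 holds 5-ASA 4, the lowest of its group. Without 5-ASA 1 or 5-ASA 2 the median of 5-ASA against Control was 0.20 or 0.19. Without 5-ASA 4 it was 0.53, with 15 members at an unadjusted p under 0.05. The share of all genes at that level without 5-ASA 4 is not given, and 0 of 24481 genes were then called in this contrast. The median difference between the slides was -0.43 without 5-ASA 4, -1.18 without 5-ASA 3 and -1.20 without 5-ASA 6. With the array row as a covariate the median of 5-ASA against Control was 0.14, with 36 members higher in 5-ASA. Both DSS groups against Sham gave 0.83 on slide 1 and 0.93 on slide 2, and Control against Sham 0.46 and 0.94.

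**Figure D4:**
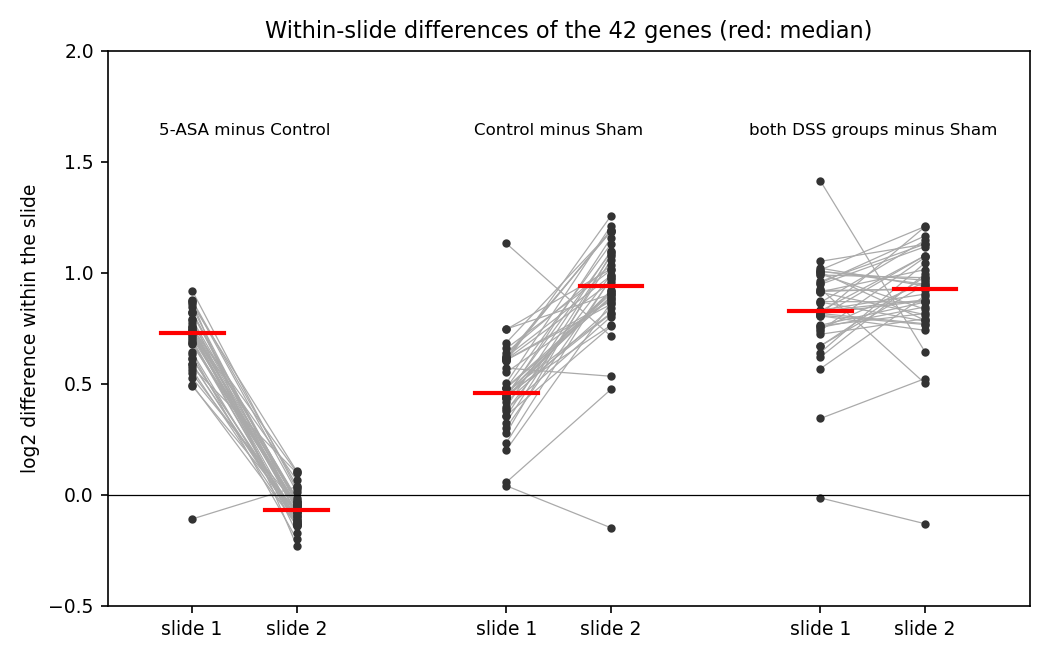
Each grey line joins the log2 difference of 1 member within slide 1 to that within slide 2, for 3 contrasts, with medians in red. The median of 5-ASA minus Control is 0.73 on slide 1 and -0.07 on slide 2, while both DSS groups minus Sham gives 0.83 and 0.93.

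Further genes of division were mostly higher in the DSS groups than in Sham as well. Of 78 measured genes in a list of other mitosis genes (82 named), 76 were higher in Control than in Sham and 77 in 5-ASA, with medians of 0.65 and 0.89, and 0 were called. *Cenpm*, *Hjurp* and *Plk4*, which act at the centromere, in loading its histone and in centriole copying, had the smallest p for both DSS groups, with differences of 0.86 (SE 0.23), 0.56 (SE 0.14) and 0.93 (SE 0.26) and an adjusted p of 0.369. The 1 gene of the list with a lower mean, named here after its values were seen, was *Wee1*, the kinase that restrains Cdk1, at -0.18 (SE 0.11). Of 22 measured DNA replication genes (23 named), 22 were higher in Control and in 5-ASA than in Sham, with medians of 0.61 and 0.62, and 14 were higher in 5-ASA than in Control, with a median of 0.04. *Gins2*, *Orc1* and *Mcm4*, all of the replication origin machinery, differed by 0.77 (SE 0.22), 0.49 (SE 0.15) and 0.61 (SE 0.20) for both DSS groups. The 13 measured cell cycle brakes (14 named) were mixed, with 6 higher and 7 lower for both DSS groups. Of them *Btg1* (an antiproliferative factor) was at -0.46 (SE 0.16), *Cdkn2b* (p15) at -0.48 (SE 0.18) and *Rbl1* (p107) at 0.29 (SE 0.13), and none was called.

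Markers of the cell types a colon sample can hold were read beside these values. For the 10 colon epithelium markers, a list mean was taken relative to each gene's average over the 16 mice. It ran from -0.14 to 0.09 in Sham, from 0.001 to 0.09 in Control and from -0.10 to 0.14 in 5-ASA. The 10 crypt base and stem cell markers lay from -0.11 to 0.16, -0.18 to 0.14 and -0.10 to 0.10, with 5 of 10 higher for both DSS groups and a median of -0.0023. Both lists spanned less than the mitosis genes did (-1.24 to 1.09). B cell markers differed more between the groups, and 9 of 9 had lower means in Control and in 5-ASA than in Sham, with medians of -1.11 and -1.97, and the list mean ran from -1.92 to 2.73 in Sham, -1.51 to 2.71 in Control and -1.48 to -0.37 in 5-ASA. Germinal centre B cell markers, a dividing population, were 6 of 6 lower in both, with medians of -0.41 and -0.74, and the B cell gene *Blk* was not well above background on any 5-ASA array. Those of T cells were 6 of 7 and 7 of 7 lower, at -0.42 and -0.60. Sham 3, lowest for the mitosis genes, had a B cell mean of 1.69 and Sham 1 one of -1.92, and their part in the result was not tested.

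Smooth muscle markers, which show how much of the muscle wall a piece holds, were 10 of 10 lower in Control than in Sham (median -0.34) and 10 of 10 higher in 5-ASA than in Control (0.41). Their list mean was -0.44 to 0.92 in Sham, -1.25 to 0.80 in Control and -0.01 to 0.44 in 5-ASA, lowest in Control 6 and Control 4. Fibroblast markers were 6 of 8 lower in Control (median -0.35), with list means of 0.05 to 0.28, -0.63 to 0.15 and -0.18 to 0.17. Erythroid markers were 6 of 6 higher in Control than in Sham (median 0.99) and 6 of 6 lower in 5-ASA than in Control (-1.59), with list means of -0.58 to 0.56, -0.06 to 3.03 and -1.38 to 0.03. Medians for Control against Sham were 0.07 over 6 macrophage, -0.0050 over 6 neutrophil and -0.06 over 5 endothelium markers. The neutrophil genes went both ways, from -0.28 to 1.74, with *S100a8* at 1.74 and *S100a9* at 1.27 (SE 1.08 and 1.03, both named after their values were seen), and their list mean was -0.88 to 0.75 in Sham, -0.79 to 1.26 in Control and -0.57 to 0.39 in 5-ASA. The list mean was -0.40 to 0.47, -0.27 to 0.48 and -0.39 to 0.22 for macrophage markers, and -0.12 to 0.18, -0.21 to 0.12 and -0.29 to 0.19 for endothelium markers, in the same order. None of these markers was called, and their part in the levels of the mitosis genes was not tested.

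**Figure D5:**
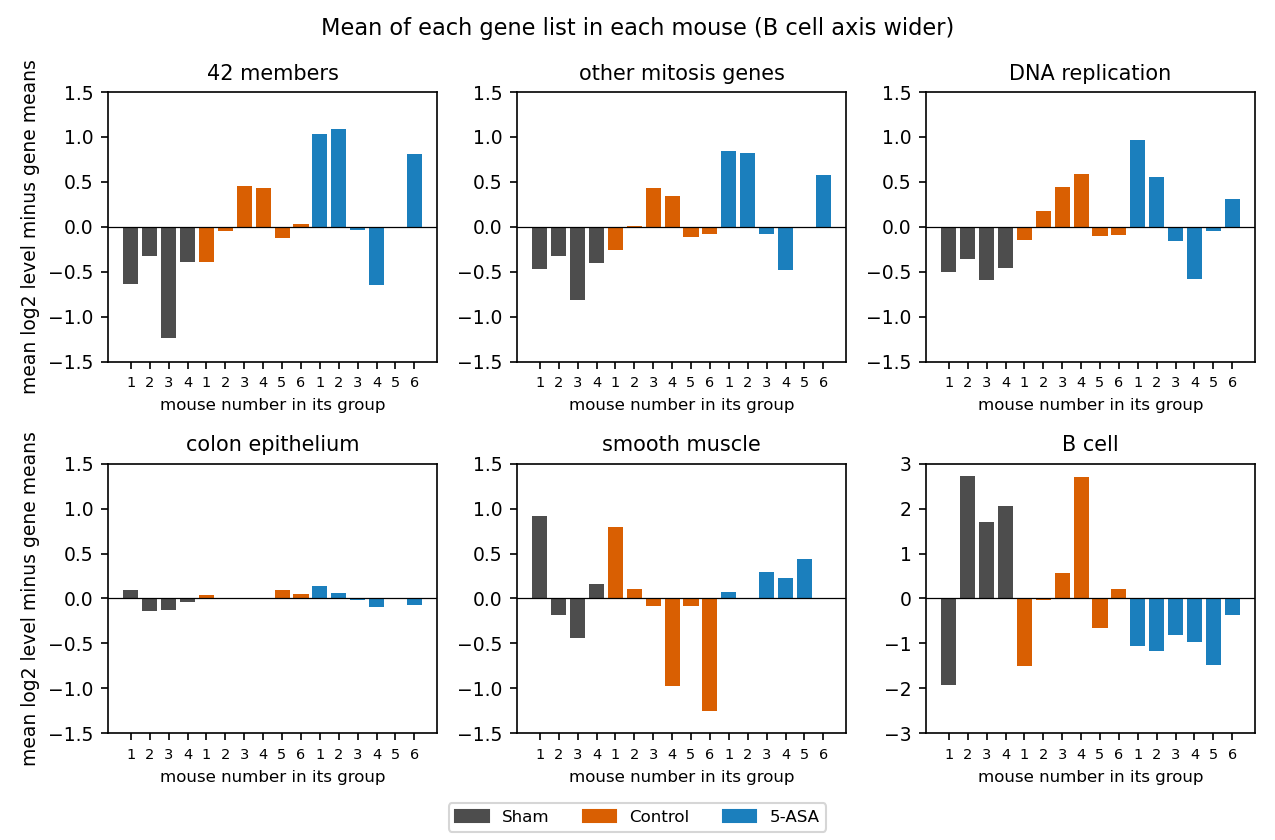
Bars give, for each mouse, the mean log2 level of a gene list minus the genes' averages over the 16 mice, coloured by group and numbered as in the labels; the B cell panel has a wider axis. Other mitosis genes follow the 42 members. Replication genes do so in part, with Control 4 (0.58) above 5-ASA 2 (0.55) and 5-ASA 6 (0.31). Colon epithelium stays between -0.14 and 0.14, and B cell means range from -1.92 to 2.73.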

How the data were processed

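Gene expression in non-tumour colon of 16 mice was measured on 1-colour (Cy3) Agilent arrays with 62976 spots each, 1 array per mouse. Per the file headers, Feature Extraction 10.10.1.1 read the scans and gave a processed intensity per spot, already background-subtracted and detrended, with flags for spots well above background and probe positions on mm9. The authors' deposited table of log2 values, for 55821 probes, does not give its scale. Compared with the scanner files, it correlated at r of 0.992 to 0.998 per array and ran in the same direction, shifted by the 75th percentile, with each probe centred on the Sham median (largest remaining Sham median 5e-07). That reading rests on the values alone. Its column medians were -0.000851, -0.0461, 0.0709 and -0.00654 in Sham 1 to 4, -0.0323, -0.0616, 0.206, -0.188, -0.0434 and 0.147 in Control 1 to 6, and 0.223, 0.177, 0.135, 0.136, 0.113 and 0.111 in 5-ASA 1 to 6. It served as an alternative.

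Here, control spots and flagged outliers were left out, spots of a probe were averaged, log2 intensity was centred on each array's 75th percentile, and a probe was kept if at least 4 of the 16 arrays had it well above background. The brightest kept probe stood for its gene, named as the array's design names it. One limma 3.58.1 model (R 4.3.3) was fitted to 24481 genes in 3 groups, without slide, with Benjamini-Hochberg adjustment over all genes and a threshold of 0.05. The difference between slides came from a model with an interaction. On simulated data for Control against Sham with 24481 genes, the test recovered 70% of log2 changes of 1 and 91% of changes of 2, with 8 false calls. That recovery is over genes at large and not for the members, whose median SE in this contrast was 0.33 against 0.16 over all genes. Figures and counts used Python 3.11.15.

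The labels name separate mice, and nothing says that RNA was pooled. The mice were not treated as paired by replicate number. Correlations of same-numbered deviations ran from -0.21 to 0.61. Differently numbered mice were not set beside them, so these values cannot exclude a pairing. Values are given in full for *Mki67*, *Top2a*, *Cdk1*, *Ccnb1*, *Plk1* and *Aurka*, and in each role list for the members with the smallest p for both DSS groups against Sham and for 5-ASA against Control. *Pttg1* and *Aurkb* were added after their values were seen. Of the other pathway lists, the 3 genes with the smallest p for both DSS groups are named. The members, the lists and the test of the difference between slides were chosen with earlier results of these data known. Alternatives covered background correction, scaling, probe filter and choice, slide, array row, replicate number and each mouse in turn.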

Additional observations from a re-analysis of the deposited data

Results flagged for a closer look

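In 129 groups of mice examined (the 3 groups for each member and for the mean over members), 2 had a mouse far from the others by Dixon's ratio, where chance flags about 1 in 20. *Spc25*, a kinetochore subunit, was at 1.71 in Sham 3, the lowest Sham mouse, with the next at 2.50 (ratio 0.958, critical value 0.829 for 4 mice). *Pttg1* was at 4.02 in Sham 2, the lowest Sham mouse, with the next at 4.18 (ratio 0.944).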

How the results depend on the processing

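None of the 42 members passed the threshold under any of the alternatives run. Among the 21 members given in full, the smallest adjusted p in limma's test was 0.0511, for 5-ASA against Sham with no filter on dim probes. That setting tests 34836 genes and calls 5 higher and 13 lower in 5-ASA against Sham, against 1 and 13 as reported. In 5-ASA against Control it calls 2891 higher and 50 lower, against 0 as reported. For these 21 members, 20 of 2646 values under alternatives changed sign, all in 5-ASA against Control and none past a threshold. Of these, 16 were on slide 2 alone, and *Ube2c* (-0.01) and *Kif4* (-0.03) were below 0 with array row as a covariate and in second-row arrays alone. Among all 42, the number of members higher in 5-ASA than in Control was 41 as reported, 36 with array row as a covariate and 8 on slide 2 alone, and *Pttg1* in Control against Sham was at 0.04 on slide 1 against -0.05 as reported. Leaving out each mouse in turn gave medians over the members of 0.52 to 0.81 for Control against Sham, 0.19 to 0.53 for 5-ASA against Control, 0.85 to 1.26 for 5-ASA against Sham and 0.69 to 0.98 for both DSS groups against Sham. The number of members higher in 5-ASA than in Control was then 40 to 41, and the median difference between slides was -1.20 to -0.43. With the replicate number as a block, which pairs mice that share a number, the medians were 0.70, 0.32, 1.07 and 0.89 in the same order. In that setting 0 members were called, and the count at an unadjusted p under 0.05 for Control against Sham was 3 in place of 20. The share of all genes at that level is not given for this setting. Signal over background limits *Aurkb* and *Cenpf*, which were well above background on 11 and 12 arrays.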
